A study of Rattus norvegicus with 8 samples.

Results

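The laminins, the nidogens and perlecan are the non-collagen core of the basement membrane, and 10 of their genes were sought among the genes measured in thoracic spinal cord of injured and sham-operated rats. A gene entered where a probe set of the array carried its symbol and no other, and the brightest such probe set over all arrays stood for the gene. By this rule 8 of the 10 were found among 18166 genes: Lama1, Lama2, Lama4 and Lama5 (laminin alpha chains), Lamb2 (a beta chain), Lamc1 (the gamma-1 chain), and the nidogens Nid1 and Nid2. Lamb1 and Hspg2, the gene of perlecan, met no probe set by this rule and were not analysed here. Messenger RNA was measured on 8 Affymetrix Rat Gene 2.0 ST arrays, 4 of animals whose thoracic cord had been injured (SCI) and 4 of animals with the laminectomy alone (sham). Both groups were Long Evans males aged about 175 days and weighing 400 g, with no genotype or drug that differed between the groups. All ate chow with 17% fat during 4 weeks of recovery and then a diet with 40% fat, and the labels give a total of 8 weeks. The design text speaks of 10 rats, and which of them gave the 8 arrays is not stated. The labels place the tissue at thoracic segments 10 to 11 in one field and 11 to 12 in another, and they give neither the way the cord was injured nor the distance from the lesion.

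A laminin molecule is a cross-shaped trimer of an alpha, a beta and a gamma chain. The gamma-1 chain is shared by most laminins of vessels, nerve and muscle. The alpha chains carry most of the sites that integrins and dystroglycan bind, so the alpha chain sets which cells a laminin can hold. In the central nervous system alpha-1 and alpha-2 laminins lie in the basement membrane under astrocyte endfeet and meninges, alpha-4 and alpha-5 laminins lie in that of the endothelium, and alpha-2 laminin also coats Schwann cells. Nidogens link the gamma-1 chain to the collagen IV network, and perlecan adds heparan sulfate chains that hold growth factors.

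Array medians ran from 3.73 to 3.81 in log2 units over all probe sets. Injured and sham arrays separated along the first principal component (45.6% of the variance). Along the second (11.2%), SCI 3, sham 1 and sham 2 had scores of -17.18, -12.62 and -12.8, against 4.53 to 14.79 on the remaining arrays, so results are also given without these 3 arrays. The mean level of 12 neuron markers lay between 7.96 and 8.76, that of 9 oligodendrocyte markers between 9.13 and 9.77 and that of 9 astrocyte markers between 8.27 and 8.44. The signal of one probe set cannot be set against that of another, and no detection calls were used, so these levels are given as a description and do not test the tissue label. Of 5 Hox genes of the thoracic cord, 1 was lower in SCI.

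In injured cord, 6 of the 8 laminin and nidogen genes were higher than in sham at an adjusted p under 0.05 (limma, Benjamini-Hochberg over all genes), where 7.10% of all genes tested were higher. They were Lama1, Lama2, Lama4, Lamb2, Lamc1 and Nid1, with rises of 1.31-fold to 1.44-fold. Lama5 and Nid2 did not pass. No member was lower, where 7.06% of all genes were, and the count of lower members was 0 also at an unadjusted p under 0.05, at which 14.2% of all genes were lower. At that threshold 7 members were higher, where 12.5% of all genes were. The median difference of the 8 genes was 0.45 on the log2 scale, beside -0.01 over all genes tested. The groups did not overlap in 6 of the 8 genes, the same 6, where 9.36% of all genes had every SCI array above every sham array. RNA came from whole tissue, so more cells of a type and more RNA per cell cannot be told apart. The calls were sensitive to which arrays entered, and 2 to 7 members passed when 1 array was left out. Without SCI 3, sham 1 and sham 2, 0 passed, and the differences were 0.36 to 0.46 over 5 arrays. In that fit 7 members had an unadjusted p under 0.05 by limma. The share of all genes at that threshold was not computed for it, so this count cannot be set against the whole table and does not replace the lost calls. With the second number of the sample titles as a covariate, over all 8 arrays, 1 member passed (Lama1) and the median difference was 0.47. The labels do not say what that number means. It was 4, 6, 7 and 8 in SCI and 5, 9, 10 and 11 in sham, so it partly follows the group, which widens the errors. The differences moved too. With this covariate they fell in Lamc1 (0.44 to 0.32), Lama4 (0.39 to 0.33), Lama5, Lamb2, Nid1 and Nid2. They grew in Lama1 (0.44 to 0.49) and Lama2 (0.50 to 0.58).

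**Figure D1:**
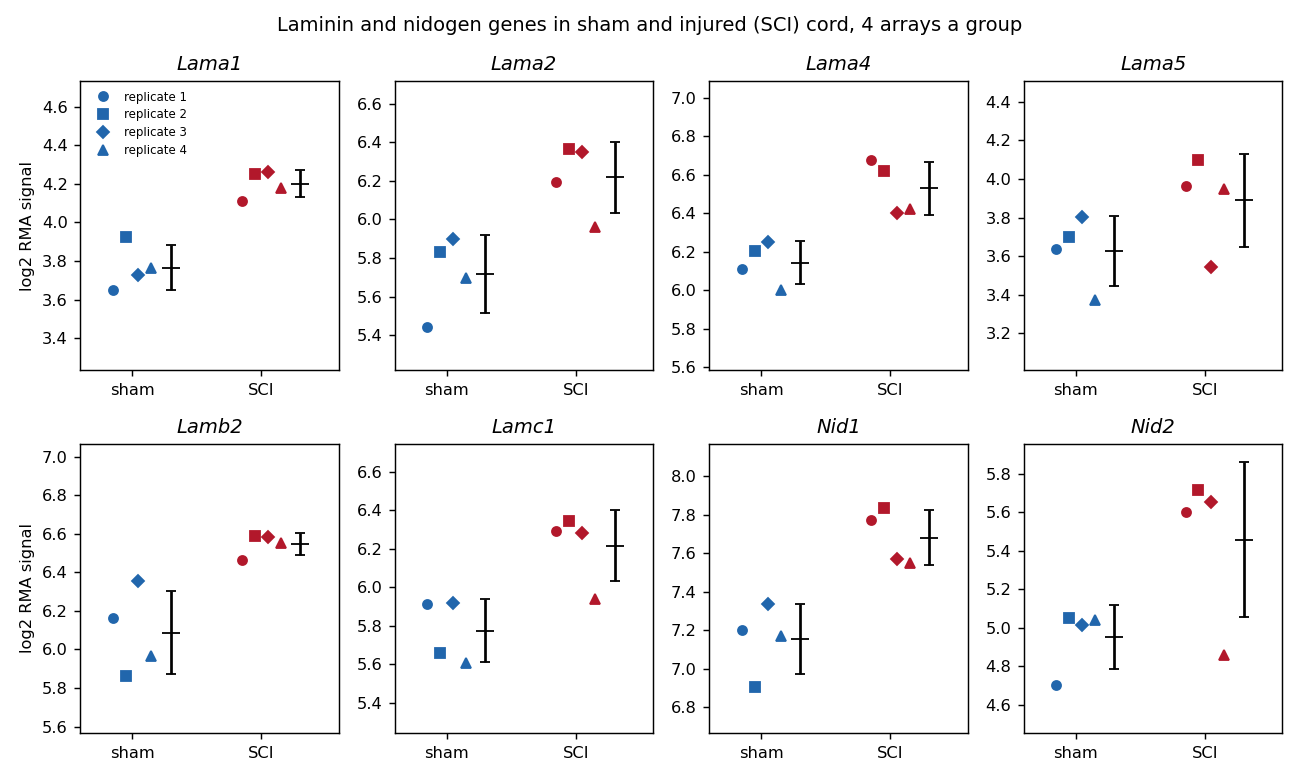
Log2 RMA signal of the 8 laminin and nidogen genes on each array, sham in blue and SCI in red, with replicates 1 to 4 of each group as different symbols and the group mean with its SD in black. Every panel spans the same height on the log2 scale. In Lama5 and Nid2 the groups overlap, and in the other 6 genes all 4 SCI points lie above all 4 sham points.

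The start regions of 4 of these genes are shown to set a window poor in G and C, that of Lama1, beside 3 that are rich in them, those of Nid1, Lamc1 and Lama5. The windows run from 250 bases before to 50 bases after the start of the gene and come from RefSeq (build GRCr8), which gave a window for 6 of the 8 genes measured (Lama1, Lama2, Lama4, Lama5, Lamc1 and Nid1) and for Lamb1 and Hspg2. Nid1 and Lamc1 encode proteins that bind each other, Lama1 had one of the steadiest calls, and Lama5 did not pass. Capitals mark every match on either strand to a GC box, a CCAAT box, a TATA box, an AP-1 site or an E-box, and neighbouring matches can overlap. The GC box was searched for as GGGCGG. The TATA box was searched for as TATAAA. The AP-1 site was searched for as TGANTCA, where N is any base. The E-box was searched for as CACGTG.
Nid1 (chr17:93069036-93069335, plus strand): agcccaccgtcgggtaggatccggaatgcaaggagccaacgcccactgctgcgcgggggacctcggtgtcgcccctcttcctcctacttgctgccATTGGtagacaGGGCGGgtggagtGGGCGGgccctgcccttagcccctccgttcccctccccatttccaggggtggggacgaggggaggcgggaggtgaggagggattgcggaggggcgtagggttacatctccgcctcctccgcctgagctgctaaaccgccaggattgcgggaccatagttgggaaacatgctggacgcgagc
Lamc1 (chr13:68051937-68052236, minus strand): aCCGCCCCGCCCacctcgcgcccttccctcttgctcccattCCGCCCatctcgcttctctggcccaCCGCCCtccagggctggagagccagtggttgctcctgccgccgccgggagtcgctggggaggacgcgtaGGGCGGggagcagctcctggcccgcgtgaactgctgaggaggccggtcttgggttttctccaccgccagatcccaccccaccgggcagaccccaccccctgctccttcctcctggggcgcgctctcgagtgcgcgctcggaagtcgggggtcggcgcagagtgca
Lama1 (chr9:115139298-115139597, plus strand): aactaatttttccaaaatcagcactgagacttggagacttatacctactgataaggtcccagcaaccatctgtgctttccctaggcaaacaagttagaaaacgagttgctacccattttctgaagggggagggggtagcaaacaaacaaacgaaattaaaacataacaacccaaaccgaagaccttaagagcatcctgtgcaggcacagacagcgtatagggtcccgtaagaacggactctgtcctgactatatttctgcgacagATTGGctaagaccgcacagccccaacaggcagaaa
Lama5 (chr3:187695925-187696224, minus strand): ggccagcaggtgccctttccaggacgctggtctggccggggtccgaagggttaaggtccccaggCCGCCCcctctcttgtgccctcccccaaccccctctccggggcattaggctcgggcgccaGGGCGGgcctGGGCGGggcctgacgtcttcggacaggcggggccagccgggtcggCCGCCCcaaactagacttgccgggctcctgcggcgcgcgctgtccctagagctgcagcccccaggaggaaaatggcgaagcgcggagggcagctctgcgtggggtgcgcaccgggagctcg
The Lamc1 window held 71.7% G and C and 28 CpG steps, the Nid1 window 66.3% and 21, the Lama5 window 73.0% and 27, and the Lama1 window 45.7% and 8, beside medians of 51.7% and 7.0 over 33469 windows. GC boxes were in the windows of Lama2, Lama5, Lamb1, Lamc1, Nid1 and Hspg2, 6 of 8, and in 33.1% of all windows of this length. A CCAAT box was in Lama1, Lama2 and Nid1, and in 37.5% of all windows. TATAAA was in Lama4 alone of the 8, at position -205, and in 14.2% of all windows. Neither an AP-1 site nor an E-box was in any of the 8 windows, and they were in 7.3% and 6.4% of all windows. These matches describe letters and no binding was measured.

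Among the alpha chains, Lama1 encodes the chain of the early embryonic laminin, which in the adult cord is known from meninges and astrocyte-facing membranes. Lama1 (probe set 17862139) read 4.11, 4.25, 4.26 and 4.18 in SCI arrays 1 to 4 and 3.65, 3.92, 3.73 and 3.77 in sham arrays 1 to 4. All SCI arrays lay above all sham arrays, with a gap of 0.19 between the groups. The means were 4.20 ± 0.07 and 3.77 ± 0.12 (log2, SD, n = 4), a 1.35-fold rise (log2 0.44, SE 0.09, adjusted p = 0.0118). The call of Lama1 held in all 8 fits without 1 array and was lost without SCI 3, sham 1 and sham 2 (0.0822). Its probe set was among those removed when dim genes were left out.

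Lama2 encodes the chain of muscle, Schwann cell and glia-facing laminin, whose loss causes a congenital muscular dystrophy. Lama2 (probe set 17610868) read 6.19, 6.37, 6.35 and 5.96 in SCI and 5.44, 5.83, 5.90 and 5.70 in sham. SCI 4 was the lowest injured array and stood 0.06 above the highest sham array. The means were 6.22 ± 0.19 and 5.72 ± 0.20 (log2, SD, n = 4), a 1.41-fold rise (log2 0.50, SE 0.13, adjusted p = 0.0274). The call of Lama2 did not survive the loss of SCI 1, SCI 2, SCI 3, sham 1 or sham 4 singly (0.0584 to 0.0812).

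Lama4 encodes the short alpha chain of endothelial laminin. Lama4 (probe set 17755422) read 6.67, 6.62, 6.40 and 6.42 in SCI and 6.11, 6.20, 6.25 and 6.00 in sham, again without overlap. The rise of Lama4 was 1.31-fold (log2 0.39, SE 0.10, adjusted p = 0.0316), and it was the smallest of the 6 that passed. The call was lost without any 1 of SCI 1, SCI 2, sham 1, sham 2 or sham 4 (0.0517 to 0.0914). A dimmer probe set of Lama4 (17755431) read 5.32, 5.57, 5.66 and 5.25 in SCI and 5.36, 5.01, 5.24 and 5.20 in sham, so its groups overlapped (difference 0.25, SE 0.12, adjusted p = 0.235 over all probe sets).

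Lama5 encodes the chain of mature endothelial and epithelial laminin. Lama5 (probe set 17779899) read 3.96, 4.10, 3.54 and 3.95 in SCI and 3.64, 3.70, 3.80 and 3.37 in sham. SCI 3 fell among the sham arrays, and the other injured arrays lay above all sham arrays. The difference in Lama5 was 0.26 (SE 0.14, 95% interval -0.045 to 0.57, adjusted p = 0.270). That interval also holds the differences of the other alpha chains. Lama5 passed in none of the fits without 1 array (adjusted p of 0.0808 to 0.512), and its probe set, like that of Lama1, was removed when dim genes were left out.

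The beta-2 chain, Lamb2, is the beta chain of arterial, glomerular and synaptic laminin. Lamb2 (probe set 17713375) read 6.46, 6.59, 6.58 and 6.55 in SCI and 6.17, 5.86, 6.35 and 5.97 in sham. The injured arrays lay within 0.13 of each other, while the sham arrays spread over 0.49. The means were 6.55 ± 0.06 and 6.09 ± 0.22 (log2, SD, n = 4), a 1.38-fold rise (log2 0.46, SE 0.12, adjusted p = 0.0239). The call of Lamb2 was lost without any 1 of SCI 2, SCI 3, sham 2 or sham 4 (0.0570 to 0.0704).

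The gamma-1 chain, Lamc1, is a part of nearly every laminin trimer that holds the chains above. Lamc1 (probe set 17685264) read 6.29, 6.35, 6.28 and 5.94 in SCI and 5.91, 5.66, 5.92 and 5.61 in sham. SCI 4 stood apart from the other injured arrays and was 0.02 above the highest sham array. The means were 6.21 ± 0.18 and 5.77 ± 0.16 (log2, SD, n = 4), a 1.36-fold rise (log2 0.44, SE 0.12, adjusted p = 0.0356). The call of Lamc1 was lost without any 1 of SCI 1, SCI 2, SCI 3, sham 2 or sham 4 (0.0831 to 0.101), and without SCI 4 it was 0.0134.

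Nid1 encodes nidogen-1, also called entactin, the link between the gamma-1 chain and collagen IV. Nid1 (probe set 17720138) read 7.77, 7.83, 7.57 and 7.55 in SCI and 7.20, 6.91, 7.34 and 7.17 in sham. The groups were 0.21 apart, the widest gap among the 8 genes. The means were 7.68 ± 0.14 and 7.15 ± 0.18 (log2, SD, n = 4), a 1.44-fold rise (log2 0.53, SE 0.12, adjusted p = 0.0138). The call of Nid1 held in all 8 fits without 1 array (0.0157 to 0.0459) and was lost without SCI 3, sham 1 and sham 2 (0.107) and with the title number as a covariate (0.0783), when its difference was 0.48.

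Nid2 encodes nidogen-2, which binds laminin as well and is known from vessel walls. Nid2 (probe set 17701129) read 5.60, 5.71, 5.66 and 4.86 in SCI and 4.71, 5.05, 5.02 and 5.04 in sham. The first 3 injured arrays lay above all sham arrays, and SCI 4 lay below 3 of the 4 sham arrays. The difference was 0.50 (SE 0.18, 95% interval 0.10 to 0.91, adjusted p = 0.0964). Without SCI 4 the difference in Nid2 was 0.70 with an adjusted p of 0.00381, and Nid2 also passed with all arrays when dim genes were left out (0.0378).

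The highest array of each group recurred from gene to gene. SCI 2 was the highest injured array in 6 of the 8 genes, and the lowest was SCI 4 in 4, SCI 1 in 2 and SCI 3 in 2. Among sham arrays, sham 3 was the highest in 6, and the lowest was sham 1 in 3, sham 4 in 3 and sham 2 in 2. The mean of the 8 genes was 5.88, 5.98, 5.83 and 5.68 in SCI arrays 1 to 4 and 5.35, 5.39, 5.54 and 5.33 in sham arrays 1 to 4. All 4 injured means lay above all 4 sham means, and SCI 4 was nearest to sham.

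Whether chains of one kind changed by unequal amounts was asked with the within-array difference of 2 genes and a two-sided exact permutation test (70 ways to assign the arrays), whose smallest possible p is 0.029. Of 4 pairs set out, 3 could be formed, since Lamb1 had no value for the pair with Lamb2, and p-values were adjusted over the 3. Nid1 minus Nid2 was 2.22 ± 0.33 in SCI and 2.20 ± 0.27 in sham (log2, SD, n = 4), a difference of 0.02 (SE 0.21, exact p = 0.914, adjusted 0.914). Lama1 minus Lama2 differed by -0.06 (SE 0.11, exact p = 0.571, adjusted 0.857). Lama4 minus Lama5 differed by 0.12 (SE 0.10, exact p = 0.229, adjusted 0.686). None of the 3 pairs showed an unequal change beyond the spread of the arrays. The 95% interval was -0.50 to 0.55 for Nid1 minus Nid2. It was -0.34 to 0.21 for Lama1 minus Lama2 and -0.11 to 0.36 for Lama4 minus Lama5. Unequal changes within these intervals were not excluded. A lone pair at the smallest possible exact p of 0.029 would also not pass once adjusted over the 3.

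The genes beside these in the basement membrane did not all differ in the same way. Of 5 other laminin and netrin chains, 1 was higher, Lama3, the alpha chain of epithelial laminin (0.48, SE 0.12, adjusted p = 0.0197), and its call was lost without SCI 2 (0.0540) or sham 2 (0.0533). Lama3 also lost its call with the title number as a covariate (0.0681). Its probe set was dim, with a mean of 3.80 over all arrays, and was removed when dim genes were left out. Ntn4, a netrin that binds the laminin gamma-1 chain, had -0.37 (SE 0.14, adjusted p = 0.113, and 0.0439 with dim genes left out), and Ntn1 had 0.20 (SE 0.11). Of 7 basement membrane collagens, 1 was higher. It was Col15a1, a collagen at the outer face of vessel and nerve basement membranes, with 4.89 ± 0.26 in SCI and 3.92 ± 0.11 in sham (log2, SD, n = 4), a 1.95-fold rise (adjusted p = 0.00105). Col4a1 and Col4a2, the chains of the collagen IV network to which nidogen ties laminin, had differences of -0.07 (SE 0.11, adjusted p = 0.758) and -0.18 (SE 0.11, adjusted p = 0.349). Col18a1, the precursor of endostatin, had 0.25 (SE 0.12, adjusted p = 0.217). The collagen list had a median of 0.09. The probe sets of Col4a1 and Col4a2 were dim, with means of 3.77 and 3.88 over all arrays, beside a median of 4.74 over genes. They were removed, like that of Col15a1, when dim genes were left out.

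The within-array difference of Lamc1 and each collagen IV chain was tested after these values were seen. Lamc1 minus Col4a1 was 2.48 ± 0.24 in SCI and 1.97 ± 0.31 in sham (log2, SD, n = 4), 0.51 apart (SE 0.20, exact p = 0.0571, adjusted over 5 pairs 0.143). Lamc1 minus Col4a2 was 2.43 ± 0.25 and 1.80 ± 0.27, 0.63 apart (SE 0.19, exact p = 0.0571, adjusted 0.143). Neither passed, and neither could have. Given the p-values of the other pairs, even the smallest possible exact p of 0.029 stays above 0.05 when adjusted over 5 pairs. The test therefore cannot decide whether laminin and collagen IV changed unequally. The unadjusted 95% intervals were 0.03 to 0.99 with Col4a1 and 0.17 to 1.08 with Col4a2. They make no allowance for the choice of these pairs after their values were seen. The probe sets of both collagen IV chains were dim, and these pairs could not be formed with dim genes left out.

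Of 14 other glycoproteins and crosslinkers of the basement membrane, 3 were higher. They were the fibulins Efemp1 (1.25, SE 0.14, adjusted p = 0.000291) and Fbln1 (0.96, SE 0.16, adjusted p = 0.00254) and fibronectin, Fn1 (0.85, SE 0.22, adjusted p = 0.0269), which no longer passed when SCI 1, SCI 2, SCI 3, sham 1, sham 2 or sham 4 was left out (0.0507 to 0.0795), and whose difference was 0.52 without SCI 3, sham 1 and sham 2. Agrn, the heparan sulfate proteoglycan agrin, and Sparc, which binds collagen IV, both chosen after their values were seen, had 0.14 (SE 0.11, adjusted p = 0.477) and 0.26 (SE 0.10, adjusted p = 0.104). Sparc passed with dim genes left out (0.0355) and with a variance trend (0.0157). The list median was 0.19.

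**Figure D2:**
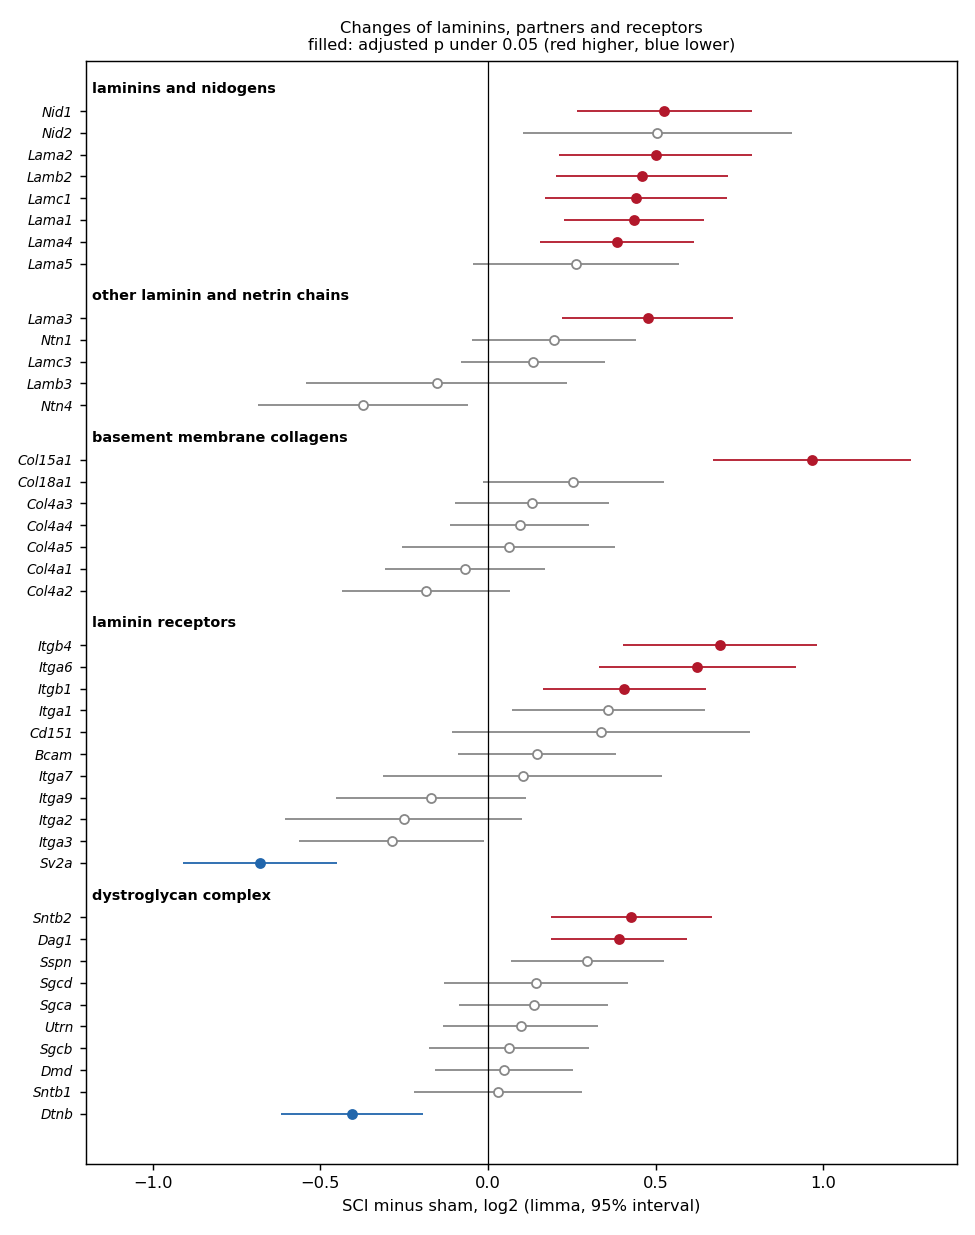
Difference between SCI and sham in log2 units with the 95% interval from limma, for the 8 laminin and nidogen genes and for the genes tested in 4 further lists. Filled points passed at an adjusted p under 0.05, red higher and blue lower, and open grey points did not. All 8 laminin and nidogen points lie right of 0, from 0.26 to 0.53, while Col4a1 and Col4a2 lie at -0.07 and -0.18. The probe sets of Col4a1, Col4a2, Col15a1, Lama1, Lama3 and Lama5 were among those removed when dim genes were left out.

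Receptors that hold cells to laminin were also measured. Of 11 integrins and other laminin receptors, 3 were higher and 1 lower. Itga6 and Itgb4, which together form the laminin-binding integrin of hemidesmosomes and Schwann cells, rose by 0.62 (SE 0.13, adjusted p = 0.0107) and 0.69 (SE 0.13, adjusted p = 0.00572). Itgb1, the beta chain of most laminin receptors, chosen after its value was seen, rose by 0.41 (SE 0.11, adjusted p = 0.0317), and kept its call only without sham 3 or sham 4 among the fits lacking 1 array (0.0534 to 0.0896 in the other 6). Itgb1 also lost it with array medians centred (0.0560), and had 0.27 without SCI 3, sham 1 and sham 2. The lower gene was Sv2a, a synaptic vesicle protein that has been found with laminin at nerve terminals (-0.68, SE 0.10, adjusted p = 0.00188). Neuron markers were lower in the same arrays. Itga1 and Itga3, partners of Itgb1 and also chosen after their values were seen, had 0.36 (adjusted p = 0.0988) and -0.29 (adjusted p = 0.169). The list median was 0.15.

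Dystroglycan, the receptor of laminin on astrocyte endfeet, Schwann cells and muscle, is encoded by Dag1. Dag1 had 8.17 ± 0.05 in SCI and 7.78 ± 0.11 in sham (log2, SD, n = 4), a 1.31-fold rise (SE 0.09 on the log2 change, adjusted p = 0.0171), and its call was lost without SCI 2 (0.0537) or sham 4 (0.0538). Of 10 genes of the dystroglycan complex, 2 were higher, Dag1 and the syntrophin Sntb2 (0.43, SE 0.11, adjusted p = 0.0246, 0.0536 to 0.0722 when any array except SCI 1 or sham 1 was left out). Dtnb, a dystrobrevin, was lower (-0.41, SE 0.10, adjusted p = 0.0173, lost without SCI 2 or sham 4 at 0.0535 and 0.0511). Utrn and Dmd, the cytoplasmic anchors utrophin and dystrophin, chosen after their values were seen, had 0.10 and 0.05. The list median was 0.12.

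The sugar chain by which dystroglycan binds laminin is built by a set of transferases, and of 9 such genes 0 passed in either direction by limma, with 4 lower and 0 higher at an unadjusted p under 0.05, where 14.2% of all genes were lower and 12.5% higher. Pomk, the kinase of that chain, had -0.30 (SE 0.10, adjusted p = 0.0586), and passed with array medians centred (0.0365), with dim genes left out (0.0168) and with a variance trend (0.0279). Pomgnt2 had -0.31 (adjusted p = 0.0955), passed with dim genes left out (0.0336) and with a variance trend (0.0476), and had -0.10 (adjusted p = 0.595) as the mean of its probe sets. Rxylt1 had -0.34 (adjusted p = 0.129). The list median was -0.17, beside 0.45 for the laminins and nidogens.

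Perlecan carries heparan sulfate, and of 19 genes that make or edit this sugar 5 were higher and 1 lower, with a median of 0.04. Sulf1 and Sulf2, extracellular enzymes that remove sulfate groups from finished chains, rose by 1.22 (SE 0.12, adjusted p = 0.000155) and 0.56 (SE 0.09, adjusted p = 0.00330). Extl3, which starts the chain, rose by 0.50 (SE 0.09, adjusted p = 0.00367). The sulfotransferases Hs2st1 (0.50, adjusted p = 0.0403) and Ndst2 (0.37, adjusted p = 0.0458) and the lower Extl2 (-0.55, adjusted p = 0.00586) were chosen after their values were seen. The call of Hs2st1 was lost without any 1 of 5 arrays (SCI 1, SCI 4, sham 1, sham 2 and sham 4, at 0.0858 to 0.104), and that of Ndst2 without any 1 array but SCI 4 (0.0512 to 0.124). Both were also lost with array medians centred (0.0605 and 0.0584), and Ndst2 with quantile normalization (0.0668) and a variance trend (0.0617).

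Of 15 proteases that cut basement membrane, 10 were higher and 1 lower, with a median of 0.52. Mmp12, the macrophage elastase, rose by 2.60 (SE 0.18, adjusted p = 1.58e-05), the cathepsin Ctsb by 1.48 (SE 0.11, adjusted p = 2.78e-05) and the plasminogen activator Plau by 1.21 (SE 0.11, adjusted p = 0.000119). The probe sets of Mmp12 and Plau were dim, with means of 3.66 and 4.31 over all arrays, and were removed when dim genes were left out. Mmp2 and Mmp14, the gelatinase and its membrane-bound activator, chosen after their values were seen, rose by 1.03 and 1.17 (adjusted p = 0.00159 and 0.00121). The lower gene was Adamts4, an aggrecanase (-0.55, adjusted p = 0.00852), also chosen after its value was seen. Of 10 genes that act behind laminin receptors inside the cell, 3 were higher, the integrin-activating talin Tln1 (0.63, SE 0.10, adjusted p = 0.00212), the integrin-linked kinase Ilk (0.46, SE 0.11, adjusted p = 0.0162) and paxillin, Pxn (0.46, SE 0.13, adjusted p = 0.0326). The call of Pxn was lost without any 1 of SCI 1, SCI 2, sham 1, sham 3 or sham 4 (0.0733 to 0.0935).

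Markers of the cells that make basement membrane differed between lists. Of 11 fibroblast and meningeal markers, 8 were higher, and their mean level was 6.98 to 7.41 in SCI and 6.16 to 6.59 in sham. Fmod and Col1a2, a small proteoglycan and a fibrillar collagen chain, rose by 1.72 (adjusted p = 9.39e-05) and 1.00 (adjusted p = 0.000827). Of 9 Schwann cell markers, 4 were higher, with a mean level of 5.54 to 5.89 in SCI and 5.04 to 5.27 in sham, and Scn7a and Pmp22 rose by 1.25 (adjusted p = 0.000468) and 0.83 (adjusted p = 0.000884). Of 10 pericyte and smooth muscle markers, 3 were higher, with a mean level of 5.82 to 6.03 in SCI and 5.39 to 5.62 in sham. They were led by Anpep (2.10, adjusted p = 4.26e-05), which macrophages express too, and Vtn (1.01, adjusted p = 0.00167). At an unadjusted p under 0.05 by limma, 4 were higher and 2 lower, where 12.5% and 14.2% of all genes were. The pericyte differences had a median of 0.32 and ran from -0.35 to 2.10. Of 13 endothelial markers, 1 was higher, the cadherin Cdh5 (0.68, SE 0.14, adjusted p = 0.00814), and the mean level overlapped, at 6.35 to 6.47 in SCI and 6.30 to 6.61 in sham. The endothelial differences had a median of -0.16, and 4 of the 13 were above 0. At the unadjusted threshold 1 endothelial marker was higher and 2 were lower, beside the same shares of all genes. The tight junction gene Cldn5, chosen after its value was seen, had -0.20 (SE 0.12, adjusted p = 0.340), and Flt1 had -0.40 (adjusted p = 0.0772) and passed as lower with dim genes left out (0.0270) and with a variance trend (0.0350).

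Other cell types moved as well in these arrays. Of 12 macrophage and microglia markers, 12 were higher, with a mean level of 7.43 to 7.85 in SCI and 5.92 to 6.15 in sham, and Cd68 and Tyrobp rose by 4.17 and 1.89 (adjusted p = 8.80e-08 and 2.34e-05). Of 9 astrocyte markers, 2 were higher and 2 lower, and the differences ran from -0.55 to 0.81 with a median of 0.006. Gfap and Gja1, a filament and a connexin of astrocytes, rose by 0.81 and 0.59 (adjusted p = 0.000229 and 0.00403), and the mean level was 8.35 to 8.44 in SCI and 8.27 to 8.35 in sham. Of 5 ependymal markers, 2 were higher, Dnah11 (0.73, adjusted p = 0.00163) and Rarres2 (0.66, adjusted p = 0.0424, 0.0733 to 0.111 when any array except SCI 4 or sham 4 was left out, and 0.0529 with array medians centred). Of 9 oligodendrocyte markers 7 were lower, among them Mog and Mbp (-0.78 and -0.70, adjusted p = 0.000620 and 0.000897, and for Mbp -0.39 and 0.0141 as the mean of its probe sets), and of 12 neuron markers 11 were lower, among them Slc17a6 and Nefm (-1.04 and -0.62, adjusted p = 0.00105 and 0.00218). Of the Hox genes, Hoxa7 was lower (-0.41, adjusted p = 0.0342, lost without any 1 array but sham 4 at 0.0560 to 0.0885, and with quantile normalization at 0.0539) and Hoxc9 had -0.16 (adjusted p = 0.431). RMA gives every probe set a value above 0, so no marker can be read as absent. The part of these cell types in the rise of the laminins and nidogens was not tested.

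**Figure D3:**
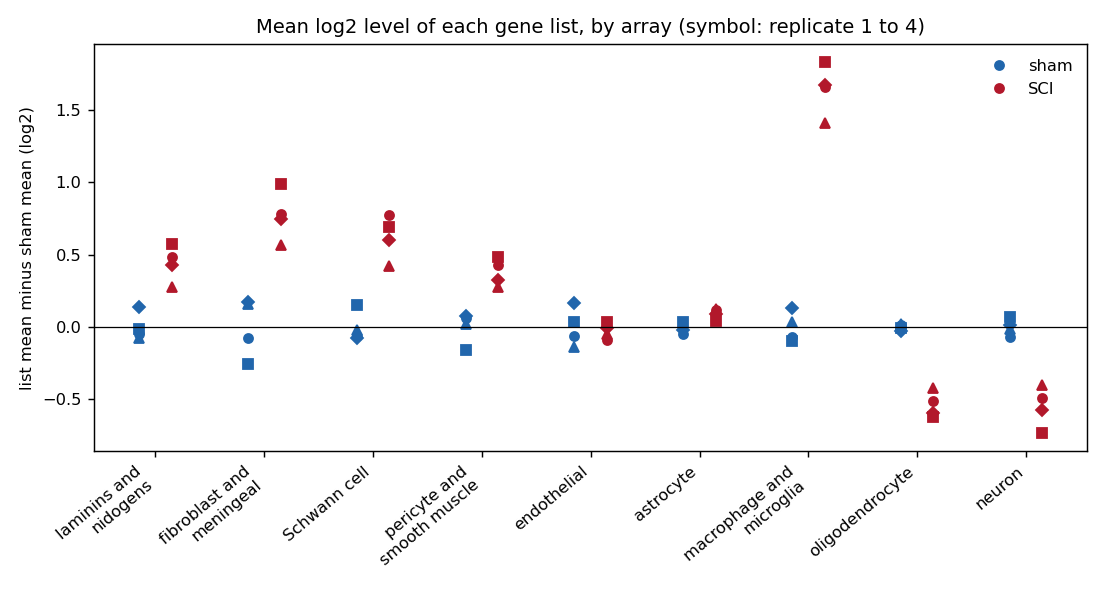
Mean log2 level of the 8 laminin and nidogen genes and of 8 marker lists on each array, drawn as the distance from the mean of the sham arrays, sham in blue and SCI in red, with symbols for replicates 1 to 4. The laminins and nidogens, the fibroblast, the Schwann cell, the pericyte and the macrophage lists lie higher on all 4 SCI arrays. The astrocyte list also lies above sham on all 4 SCI arrays, but close to it. The endothelial list overlaps, and the oligodendrocyte and neuron lists lie lower.

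For the 3 genes with the smallest p (Lama1, Nid1 and Lamb2), the genes of most similar profile were sought by the root mean square distance of centred log2 values over the 8 arrays, a description in which all genes with a like difference between the groups come close. Nearest to Lama1 were Ski, Tmem131 and Sorbs3 (distances of 0.060, 0.060 and 0.062), with differences of 0.51, 0.41 and 0.38. Nearest to Nid1 were Heph, Clec4a and Tmem43 (0.064, 0.066 and 0.068), with differences of 0.46, 0.61 and 0.56. Nearest to Lamb2 were Ctdsp1, Abcc4 and Ccl7 (0.066, 0.070 and 0.070), with differences of 0.43, 0.38 and 0.37. Of these 9, Abcc4 and Ccl7 did not pass (adjusted p = 0.0568 and 0.0528) and passed without sham 3 (0.0379 and 0.0393), and Abcc4 also passed with dim genes left out (0.0177) and with a variance trend (0.0318). The calls of Heph, Tmem43 and Ctdsp1 were each lost without several single arrays (0.0508 to 0.0859, 0.0512 to 0.0654 and 0.0623 to 0.0763).

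**Figure D4:**
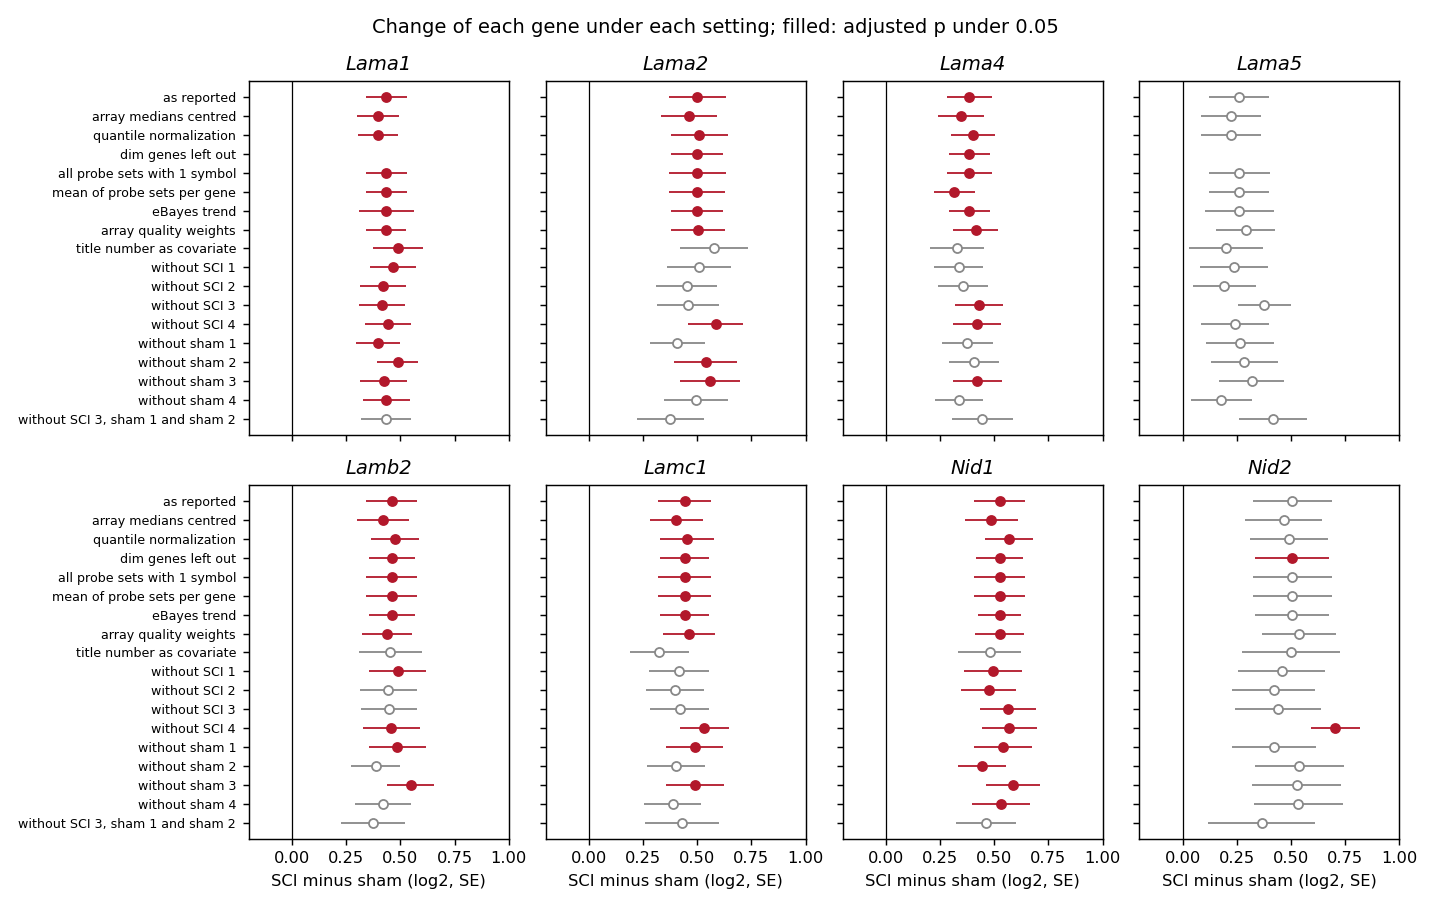
Difference between SCI and sham (log2, with its SE) of each laminin and nidogen gene as reported and under each other setting, with filled red points at an adjusted p under 0.05 and open grey points otherwise. All points lie right of 0. Lama1 and Nid1 stay filled in the 8 fits without 1 array, and no point is filled without SCI 3, sham 1 and sham 2.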

How the data were processed

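The 8 arrays were of the Affymetrix Rat Gene 2.0 ST type, per the labels. The deposited values are log2 RMA signals from Expression Console, per the submitters' processing notes. RMA corrects background, aligns the arrays and summarises probes. The program's version and settings were not given in the sources used here, nor was a genome build. Of 36685 probe sets, the platform annotation gave 1 symbol to 18511, several to 575 and none here to 17599, and 18394 matched RefSeq by gene ID with 0 symbols changed. For a repeated symbol the probe set with the highest mean was used, which left 18166 genes. Groups were tested by lmFit and eBayes of limma 3.58.1 (R 4.3.3; no covariate, no filter on dim genes) with Benjamini-Hochberg adjustment over all genes, at a threshold of 0.05. The fit was tested on simulated data. Replicate numbers follow accession order and pair nothing. The labels do not tie arrays to numbered animals, so p-values measure the spread between these samples, which may be technical. The number of arrays limits the precision, and 0 pairs of arrays were identical. The genes of the family and the lists, with 220 genes of which 195 were tested, were chosen with earlier results of these data known. Named genes are the members, the 3 genes of smallest p in each pathway list and 2 in each marker list, the 3 genes nearest in profile to each of 3 members, and Col4a1, Col4a2, Dag1, Gfap, Cd68 and Mbp. Any further gene was picked with its value in view, as the text says there. Alternatives were another scaling, a filter on dim genes, other probe set rules, other variance models, a covariate and fits without arrays.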

Additional observations from a re-analysis of the deposited data

Results flagged for a closer look

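In groups of 4 arrays, 9 of 158 group values of 79 named genes held an array whose gap to its nearest neighbour exceeded Dixon's 95% critical value, where chance gives about 1 in 20. SCI 4 was low in Lamc1 (5.94, the others 6.28 to 6.35), in Nid2 (4.86, the others 5.60 to 5.71), in Ntn1 (5.20, the others 5.51 to 5.55) and in Ndst2 (4.43, the others 4.68 to 4.72). Sham 1 was low in Nid2 (4.71, the others 5.02 to 5.05). SCI 2 was high in Fbln1 (7.32, the others 6.58 to 6.68), and so was sham 3 (5.97, the others 5.79 to 5.81). Sham 2 was high in Pmp22 (9.98, the others 9.74 to 9.78) and in Hoxc9 (5.58, the others 5.33 to 5.33).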

How the results depend on the processing

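The differences of the 8 laminin and nidogen genes were above 0 in all 134 values recomputed over 17 settings. These values are not independent, since all settings reuse the same arrays. Dim genes left out, all probe sets with 1 symbol and the variance trend change only the error or the adjustment, so their differences could not move. The number of members higher, 6 as reported, stayed at 6 with array medians centred, quantile normalization, dim genes left out (where Nid2 passed while Lama1 and Lama5 were not tested), all probe sets with 1 symbol, the mean of probe sets per gene, a variance trend and array quality weights. It was 1 with the second title number as a covariate, when 813 genes in all were higher and 543 lower, and 0 without SCI 3, sham 1 and sham 2, when 563 were higher and 284 lower. Without 1 array, members higher ran from 2 to 7, members lower from 0 to 0, genes higher from 923 to 1257 and genes lower from 780 to 1283. These fits also have fewer arrays. With all probe sets of 1 symbol, only the chosen probe sets were counted, so the dimmer one of Lama4 did not enter. With the mean of probe sets per gene it entered, and Lama4 passed with a difference of 0.32 (adjusted p = 0.0495). Of the pairs, Nid1 minus Nid2 ran from -0.13 to 0.12 without 1 array, and Lama1 minus Lama2 turned to 0.0583 without SCI 3, sham 1 and sham 2, and neither pair passed. Without these 3 arrays no pair could pass, since the exact test over 5 arrays has too few assignments. The gene Col4a1 turned to 0.0596 without these 3 arrays. The cause was not tested. Of 58 named genes past the test, 40 kept their call in all 8 fits without 1 array, 37 lost it without the 3 arrays and 19 with the covariate. Pair differences were not run under the variance trend, the array weights or the covariate, since the exact test uses none of these. Signal over background was not measured here. No paired analysis was possible because the labels give no replicate number that the groups share.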
